A study of Mus musculus with 99 samples.

Results

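Penk, Pdyn, Pomc and Pnoc are the 4 mouse genes that encode the precursors of the opioid peptides: proenkephalin, prodynorphin, pro-opiomelanocortin and prepronociceptin. They were taken by symbol from the 55335 genes counted in every library, and all 4 were found. Their transcripts were measured by RNA sequencing of tissue punches from 5 brain regions of juvenile C57BL/6 offspring labelled wild type, of both sexes. The regions were the nucleus accumbens (NAc) in the ventral striatum, 2 cortical areas, prelimbic (PrL) and primary somatosensory (S1), the ventral tegmental area of the midbrain (VTA), and the ventrobasal part of the thalamus (VBT). In the fentanyl groups the dams drank fentanyl, an agonist of the mu opioid receptor, at 10 µg/ml in their water, starting on embryonic day 0 of the pregnancy and ending at weaning. The comparison groups carry the treatment label Water. The pups were therefore exposed through the dam, and the labels give neither the dose that reached a pup nor the litter it came from. The comparisons ask how levels differ between regions, and whether perinatal fentanyl changed them in either sex. With 1 VTA library left out, 98 of 99 libraries were used: 18 groups of region, sex and treatment had 5 libraries, and the male water groups of VTA and S1 had 4. Because litters are not named, p-values measure only the spread between these libraries.

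Opioid precursors are cut inside secretory vesicles by prohormone convertases, and the peptides released act on receptors of the Gi/o class. Enkephalins act mainly at delta and mu receptors, dynorphins at the kappa receptor, beta-endorphin from pro-opiomelanocortin mainly at the mu receptor, and nociceptin at a receptor of its own that does not bind the classical opioids with high affinity. In the striatum, of which the NAc is a part, Penk is typical of the projection neurons with D2 dopamine receptors (the indirect pathway) and Pdyn of those with D1 receptors (the direct pathway). Pomc is made mainly in the arcuate nucleus of the hypothalamus and in the pituitary, and Pnoc mainly in GABA neurons of many regions.

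The coding sequences of the 4 genes show what sets the peptides apart, and the stretch shown for each holds the opioid core or, in Pnoc, its counterpart. In the annotation GENCODE M21 (GRCm38), the first-numbered transcript of Penk has 7 stretches of codons for the tyrosine-glycine-glycine-phenylalanine core of the opioid peptides, that of Pdyn 3 and that of Pomc 1. In Penk the next codon is for methionine in 6 of the 7 and for leucine in 1, and in Pdyn it is for leucine in all 3. Pnoc has none of these stretches and 1 counterpart that starts with a phenylalanine codon. All 12 stretches directly follow a pair of codons for basic residues, the kind of site at which convertases cut. Each line gives 27 coding bases, 5′ to 3′ on the gene's strand, with the 4 codons of the core in capitals and those of the basic pair before them.
Penk, copy 1, methionine next (chr4:4134328-4134354, minus strand, exon 2 of 2): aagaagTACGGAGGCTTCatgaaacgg
Penk, copy 6, leucine next (chr4:4133935-4133961, minus strand, exon 2 of 2): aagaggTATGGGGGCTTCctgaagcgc
Pdyn, copy 2, leucine next (chr2:129688124-129688150, minus strand, exon 4 of 4): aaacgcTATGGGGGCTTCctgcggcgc
Pomc, copy 1, methionine next (chr12:3960367-3960393, plus strand, exon 3 of 3): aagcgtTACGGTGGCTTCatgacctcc
Pnoc, copy 1, threonine next (chr14:65404872-65404898, minus strand, exon 3 of 4): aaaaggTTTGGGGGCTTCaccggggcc
Copies 4 and 6 of Penk, with methionine and leucine next, and copy 2 of Pdyn have the same 12 core bases, TATGGGGGCTTC. The reads were counted per gene, so they do not say which peptides were made.

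Penk (ENSMUSG00000045573) lies on chromosome 4 from 4133531 to 4138819 on the minus strand, with 1634 exonic bases. Its 5′ end overlaps A830012C17Rik on the other strand, whose median level was 0.515 CPM in NAc and at most 0.0656 CPM in the other regions. Pdyn (ENSMUSG00000027400) lies on chromosome 2 from 129686565 to 129699844 on the minus strand, with 2887 exonic bases. Pomc (ENSMUSG00000020660) lies on chromosome 12 from 3954951 to 3960642 on the plus strand, with 1318 exonic bases. Pnoc (ENSMUSG00000045731) lies on chromosome 14 from 65400673 to 65425472 on the minus strand, with 2157 exonic bases. No member had a count of 0 in any of the 98 libraries. The lowest counts were 163 for Penk, 11 for Pdyn, 14 for Pomc and 36 for Pnoc.

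The median library held 36024982 counts summed over genes, the smallest 23032078 and the largest 52069639. Levels are given as CPM, the count of a gene scaled to a common library total. The library left out, VTA male water 3, detected 6333 genes, and each of the others detected at least 24079. The labels were compared with marker scores, in which log2(CPM + 1) is averaged over a list of genes. The thalamic score was 6.75 to 8.26 in VBT and at most 3.16 elsewhere, the dopamine neuron score 3.94 to 6.47 in VTA and at most 1.78 elsewhere, and the cortical score 6.52 to 7.25 in S1 and PrL and at most 6.38 elsewhere. Striatal markers (Ppp1r1b, Rgs9, Pde10a and Adcy5) scored 8.50 to 10.1 in NAc and 5.15 to 7.95 in the other regions. The libraries of VBT that stood apart were male water 3, female water 2 and male fentanyl 5, with striatal scores of 7.95, 7.54 and 6.93 against a median of 5.37 in that region. Olfactory bulb markers (Eomes, Cdhr1, Doc2g and Tbx21) scored 5.66 in PrL male water 3, 4.83 in PrL female water 5 and 2.64 in PrL male water 4, against a median of 1.11 in that region, and 3.01 in NAc male water 2 and 2.32 in NAc female water 4, against a median of 1.44. VBT female fentanyl 1 held 20.9 CPM of 4 Y-linked genes in sum, against at most 1.53 in the other libraries labelled female and at least 190 in males.

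Penk was highest in NAc, where it was also the most abundant of the 4. Its mean was 781 ± 277 CPM in NAc (SD, n = 20), 70.3 ± 24.2 in VTA (SD, n = 19), 28.8 ± 42.9 in VBT (SD, n = 20), 24.0 ± 13.4 in PrL (SD, n = 20) and 17.7 ± 4.56 in S1 (SD, n = 19). All 20 NAc libraries, from 336 to 1430 CPM, lay above every library of the other regions, the highest of which was 180 CPM. In edgeR's quasi-likelihood test over all groups, Penk in NAc was 11.1-fold above VTA, 28.7-fold above VBT, 30.7-fold above PrL and 41.1-fold above S1. VTA was in turn 2.57-fold above VBT, 2.75-fold above PrL and 3.69-fold above S1. Adjusted p-values of these 7 differences were 6.28e-06 or lower. VBT, PrL and S1 did not differ beyond their spread, with adjusted p of 0.0760 for VBT against S1, 0.748 for VBT against PrL and 0.188 for S1 against PrL. VBT passed as above S1 among water libraries alone (log2 difference of 1.09, adjusted p = 0.0447) and without the libraries numbered 4 (0.72, adjusted p = 0.0414), and as below it in limma-voom (-0.57, adjusted p = 0.0113).

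The VBT values of Penk were spread widely, from 4.45 to 180 CPM with a median of 9.94, and the mean was set by few libraries. Without the 3 VBT libraries with high striatal scores and the 2 PrL libraries with high olfactory bulb scores, VBT was below PrL, with a log2 difference of -0.56 (adjusted p = 0.00940). Among the water libraries alone, VTA against VBT no longer passed (0.89, adjusted p = 0.111). Over all alternatives the log2 difference of VTA from VBT ran from 0.89 to 2.33, against 1.36 in the main fit. That of VBT from NAc ran from -5.84 to -3.94, against -4.84.

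Pdyn had the same top region and a different order below it. Its mean was 189 ± 61.5 CPM in NAc (SD, n = 20), 24.8 ± 4.16 in PrL (SD, n = 20), 20.7 ± 3.37 in S1 (SD, n = 19), 4.62 ± 5.71 in VBT (SD, n = 20) and 3.19 ± 0.703 in VTA (SD, n = 19). NAc was 7.09-fold above PrL, 8.63-fold above S1, 40.6-fold above VBT and 60.1-fold above VTA. PrL against S1 did not pass (log2 difference of S1 from PrL -0.28, adjusted p = 0.271), although it did in limma-voom (-0.34, adjusted p = 0.00485) and without the 3 VBT and 2 PrL libraries named above (-0.34, adjusted p = 0.0382). Both were above VBT and VTA, by 4.70-fold to 8.48-fold. Over the alternatives the log2 difference of VBT ran from -3.30 to -1.82 against S1 and from -3.64 to -2.06 against PrL. Against NAc it ran from -6.33 to -4.83. VTA, the region with the second highest Penk, thus had the lowest mean Pdyn, but by medians VBT was lower, at 2.21 CPM against 3.31. VTA passed as lower than VBT (-0.57, adjusted p = 0.0424), but that call was lost under several alternatives. Without those 3 VBT and 2 PrL libraries the difference was 0.26 (adjusted p = 0.218), and limma-voom with sample weights gave 0.62 (adjusted p = 0.0145). Leaving out all libraries numbered 1, 2 or 3 also ended the call, with values of -0.48, -0.43 and -0.27, as did water libraries alone (-0.83, adjusted p = 0.114), no filter on low counts (-0.58, adjusted p = 0.0668) and the replicate block (-0.35, adjusted p = 0.235).

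**Figure D1:**
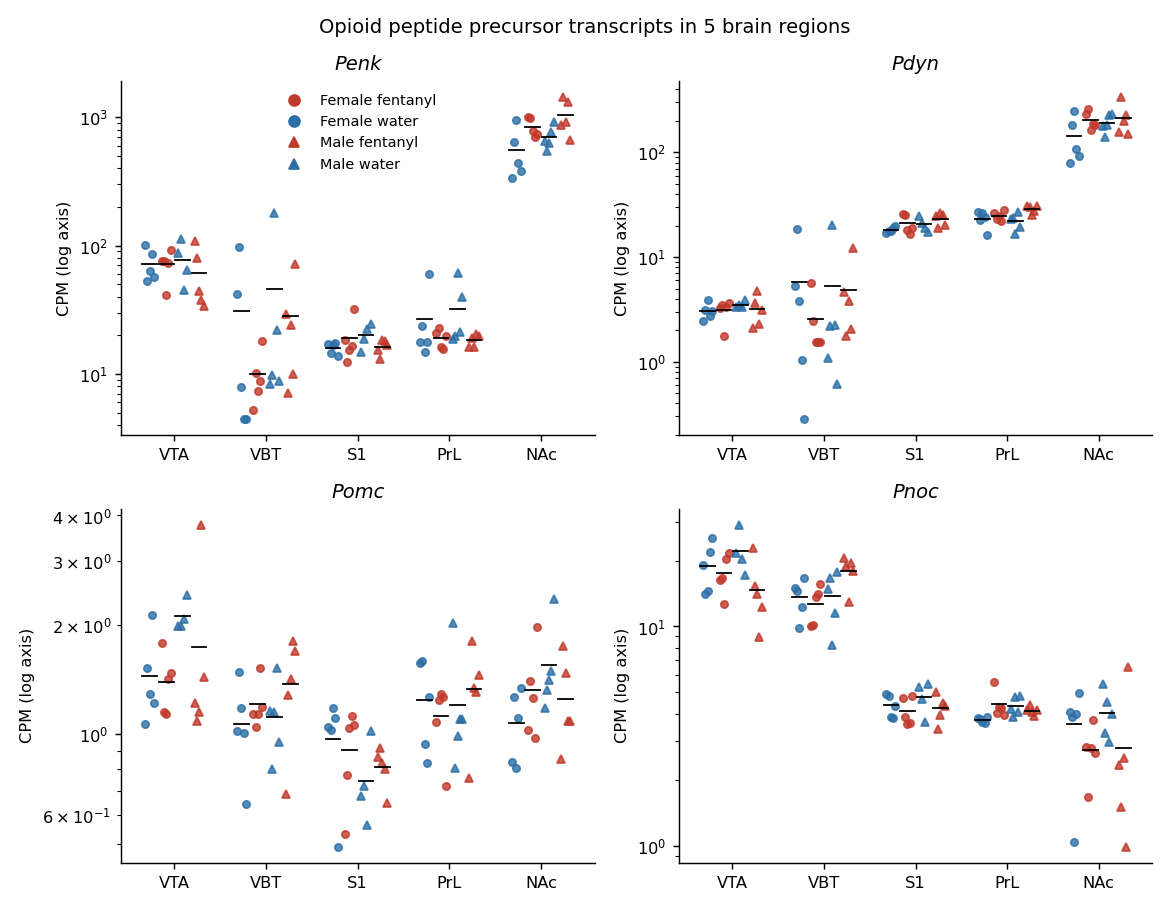
Level of each precursor in 98 libraries, in CPM on a log axis, by region. Circles are females and triangles males, red is fentanyl and blue is water, and black lines are group means. Penk and Pdyn are highest in NAc, Pnoc is highest in VTA and VBT, and Pomc stays between 0.490 and 3.77 CPM everywhere.

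Pnoc ran the other way. It averaged 18.1 ± 5.02 CPM in VTA (SD, n = 19) and 14.5 ± 3.48 in VBT (SD, n = 20), without passing as different (adjusted p = 0.201), although among water libraries alone VTA passed as higher (log2 difference of 0.44, adjusted p = 0.0199). S1 followed with 4.35 ± 0.623 (SD, n = 19) and PrL with 4.16 ± 0.459 (SD, n = 20), which did not differ either (adjusted p = 0.795). NAc was lowest with 3.28 ± 1.46 CPM (SD, n = 20). VTA was 5.48-fold above NAc, 3.96-fold above PrL and 3.84-fold above S1, and VBT was 4.86-fold, 3.52-fold and 3.41-fold above them. Cortex against NAc was a smaller difference: S1 was 1.43-fold and PrL 1.38-fold higher (adjusted p = 0.000311 and 0.000826), and among water libraries alone neither passed (log2 differences of 0.34 and 0.17).

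Pomc was close to the lower end of what these libraries count. Its mean was 1.65 ± 0.658 CPM in VTA (SD, n = 19), 1.30 ± 0.385 in NAc, 1.22 ± 0.349 in PrL and 1.19 ± 0.313 in VBT (SD, n = 20 each), and 0.864 ± 0.216 in S1 (SD, n = 19). These are 14 to 144 reads per library. S1 was lowest against every other region, by 1.79-fold against VTA and 1.43-fold to 1.46-fold against the other 3 regions (adjusted p = 0.000424 or lower). VBT, PrL and NAc did not differ from each other (adjusted p = 0.881 or higher). VTA passed as above VBT, PrL and NAc by 1.23-fold to 1.25-fold, with adjusted p of 0.0261 to 0.0344. Without the libraries numbered 4, among them VTA male fentanyl 4 at 3.77 CPM, these log2 differences were 0.23, 0.10 and 0.10, with adjusted p of 0.135, 0.525 and 0.507. The 3 calls were also lost with VTA male water 3 kept (log2 differences 0.25, 0.22 and 0.22). Those against PrL and NAc were lost in limma-voom (0.17 and 0.18) and without the filter on low counts (0.29 and 0.30), and that against PrL without the VBT and PrL libraries that stand apart (0.28). The call was also lost without the libraries numbered 1 against VBT (0.30) and NAc (0.25), without those numbered 3 against PrL (0.33), and without those numbered 5 against VBT (0.30) and PrL (0.27). The score of 5 arcuate markers was 0.778 to 1.20 in VTA, the region with the highest mean Pomc, and at most 0.705 in the other regions. Of the 5, Kiss1 was at 0 in all 98 libraries and Agrp at 0.340 CPM or less. Sox14 had a median of 3.58 CPM in VTA and of at most 0.190 elsewhere, Ghrh 0.391 CPM in VTA and at most 0.0641 elsewhere, and Tbx3 4.92 CPM in VTA and 3.28 to 4.17 elsewhere. Their part in the level of Pomc was not tested. Of the pituitary hormone genes Lhb was at 0 throughout and Gh at 0.280 CPM or less. The pituitary score was at most 0.0942 in any library.

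In all, 31 of the 40 differences of a member between a pair of regions passed an adjusted p of 0.05. Regional differences are the rule in these data. Among the 22326 genes tested, 66.0% passed between VTA and VBT, 74.0% between VTA and S1, 75.8% between VTA and PrL and 75.4% between VTA and NAc. Between VBT and S1, PrL and NAc the shares were 74.3%, 76.1% and 75.9%, and between S1 and PrL, S1 and NAc, and PrL and NAc they were 52.2%, 64.7% and 65.7%. The members' 31 of 40 is near these shares, so the number of calls is no result about the members. In punched tissue, fewer cells of a type and less RNA per cell cannot be told apart.

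Levels of different genes were compared per kilobase of exon. In NAc Penk stood at 478 ± 170 CPM per kilobase and Pdyn at 65.4 ± 21.3, against 1.52 ± 0.677 for Pnoc and 0.987 ± 0.292 for Pomc (SD, n = 20). In PrL the values of Penk and Pdyn were 14.7 ± 8.22 and 8.58 ± 1.44 (SD, n = 20), and in S1 they were 10.8 ± 2.79 and 7.17 ± 1.17 (SD, n = 19). In VTA the order of means was Penk at 43.0 ± 14.8, Pnoc at 8.39 ± 2.33, Pomc at 1.25 ± 0.499 and Pdyn at 1.11 ± 0.243 (SD, n = 19). By medians the last 2 were reversed, with Pdyn at 1.15 and Pomc at 1.09. In VBT, Penk at 17.6 ± 26.3 was followed by Pnoc at 6.73 ± 1.61, Pdyn at 1.60 ± 1.98 and Pomc at 0.904 ± 0.238 (SD, n = 20). The order of the first 2 in VBT rests on the mean: the medians were 6.08 for Penk and 6.78 for Pnoc, and Penk was below Pnoc in 10 of the 20 libraries. So does that of the last 2 in VBT, with medians of 0.766 for Pdyn and 0.874 for Pomc. Pnoc thus ranked above Pdyn in VTA and VBT and below it in the other 3 regions.

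No member passed the test of fentanyl against water in any region, whether the sexes were taken singly or averaged, or as the male minus female effect. That is 0 of 80 tests in edgeR, and 0 of 80 in DESeq2. In limma-voom 3 of 80 passed, Penk in the NAc average, where that tool called 1.13% of all genes, and Pnoc and Pomc in VTA males, where it called 32.9%. In edgeR 11 of the 80 had an unadjusted p under 0.05, against 2.59% to 35.4% of all genes in the same contrasts. Penk had 5 of these 11, Pdyn 3, Pnoc 3 and Pomc 0. The values that came closest were in NAc for Penk, in PrL for Penk and Pdyn, and in VTA for Pnoc.

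**Figure D2:**
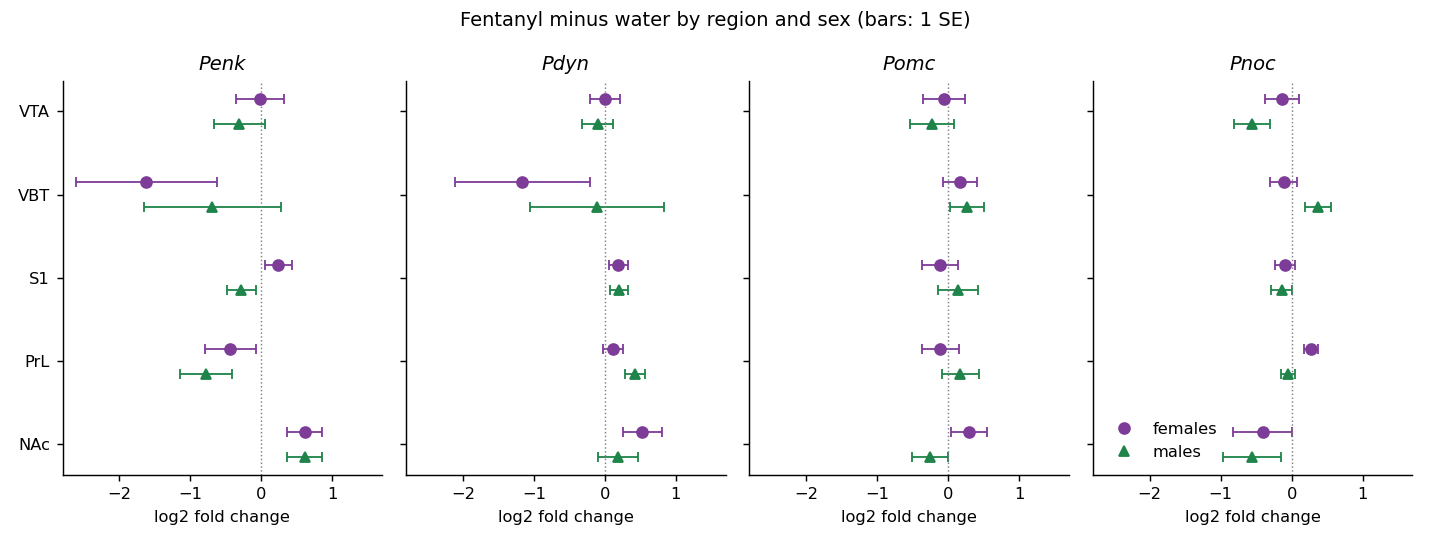
Log2 fold change of fentanyl over water for each precursor by region, in females (circles) and males (triangles), from edgeR, with bars of 1 SE. Penk in NAc is at 0.61 in both sexes, and the widest bars are those of Penk and Pdyn in VBT.

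In NAc, Penk was higher on average with fentanyl in both sexes, without passing the test over all genes. The female fentanyl libraries held 994, 976, 780, 698 and 740 CPM, and the female water libraries 336, 644, 953, 442 and 381. All 5 fentanyl values lay above 4 of the 5 water values, and 2 lay above the highest, that of female water 3. In males the values were 870, 1430, 908, 1304 and 660 CPM with fentanyl and 652, 549, 624, 770 and 908 with water. Here 2 fentanyl libraries stood far above all water libraries, and the lowest lay among them. The log2 fold change was 0.61 ± 0.25 (SE) in each sex, with adjusted p of 0.544 in females and 0.218 in males. Averaged over the sexes it was 0.61 ± 0.18 (SE), with an adjusted p of 0.282. In this region 0.662% of 19480 genes were called in males, and 0.00% each in females, over both sexes and for the difference between the sexes. The average passed in limma-voom (0.69, adjusted p = 0.0340), which called 1.13% of genes, and in a fit adjusted for each library's share of reads outside exons (0.71, adjusted p = 0.0239), which called 1.62%.

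Pdyn in NAc was 233, 258, 163, 186 and 183 CPM in female fentanyl libraries and 79.5, 181, 251, 108 and 93.1 in female water libraries. In males it was 157, 337, 201, 227 and 149 CPM with fentanyl and 179, 139, 182, 229 and 235 with water. The male groups overlapped almost completely. Log2 fold changes were 0.53 ± 0.28 (SE) in females and 0.19 ± 0.28 (SE) in males, with adjusted p of 0.570 and 0.769. Pnoc had the opposite sign, with means of 2.73 ± 0.730 against 3.58 ± 1.49 CPM in females and 2.78 ± 2.20 against 4.04 ± 0.993 in males (SD, n = 5 each), and adjusted p of 0.773 and 0.503. The male log2 fold change of -0.56 became -1.09 (adjusted p = 0.0798) without male fentanyl 5, at 6.56 CPM. Pomc was at 1.33 ± 0.396 against 1.07 ± 0.245 CPM in females and 1.25 ± 0.356 against 1.55 ± 0.463 in males (SD, n = 5 each), with adjusted p of 0.724 and 0.623.

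Both striatal precursors followed the striatal markers from library to library. Over the 20 NAc libraries, log2 Penk and the striatal score had a Pearson r of 0.90 and a Spearman rho of 0.90 (permutation p = 1e-05 for each, the smallest that the permutations can give). For Pdyn the values were 0.89 and 0.88, with the same p. For Pnoc they were negative, with r = -0.76 and rho = -0.72 (permutation p = 8.00e-05 and 0.000530), and for Pomc 0.21 and 0.19 (permutation p = 0.375 and 0.415). The relations of Penk, Pdyn and Pnoc were also seen with the 2 libraries farthest from the median score left out, with r of 0.84, 0.87 and -0.76, and within groups, with r of 0.97, 0.88 and -0.84. These are 3 of 12 such relations computed. Adjusted over the 12, the p-values of Penk and Pdyn were 3.00e-05 for r and 6.00e-05 for rho, and those of Pnoc 0.000160 and 0.000909. The 4 markers are genes of the same neurons, and all values of a library share its scaling. None of the 4 was at 0 in any NAc library. Their summed level was 3018 to 4399 CPM in female fentanyl and 1593 to 4026 in female water libraries, and 2042 to 4755 and 2468 to 3412 CPM in the male groups.

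No treatment difference in the score passed after adjustment over 10 scores, where a single score with 5 against 5 libraries cannot pass. Females scored 9.71 ± 0.249 with fentanyl and 9.08 ± 0.529 with water, a difference of 0.63 (two-sided exact permutation p = 0.0476, adjusted p = 0.238). In males it was 9.51 ± 0.50 against 9.41 ± 0.177, a difference of 0.10 (exact permutation p = 0.698, adjusted p = 0.829). Cortical markers (Slc17a7, Neurod6, Tbr1 and Emx1) varied as well among NAc libraries, with scores from 2.68 to 6.38. Their summed level had a median of 556 CPM in female fentanyl and 972 in female water libraries, and of 640 and 497 CPM in the male groups. The libraries with the 2 highest Penk values, male fentanyl 2 and 4, had cortical scores of 3.07 and 3.36. The part of these markers in the Penk values was not tested. With the score as a covariate in edgeR, the log2 fold change of Penk was 0.04 ± 0.08 (SE) in females (adjusted p = 0.975) and 0.46 ± 0.07 (SE) in males (adjusted p = 0.00514). In that fit 445 of 19480 genes, or 2.28%, were called as higher with fentanyl in males. Pdyn was at -0.03 in females and 0.06 in males under the same covariate. The male minus female effect of Penk was 0.41 in this fit, with an adjusted p of 0.0633. Pnoc, which ran against the score, was at 0.70 in females and -0.63 in males in the same fit, with adjusted p of 0.937 and 0.10, where the sign in females was the opposite of that without the covariate.

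**Figure D3:**
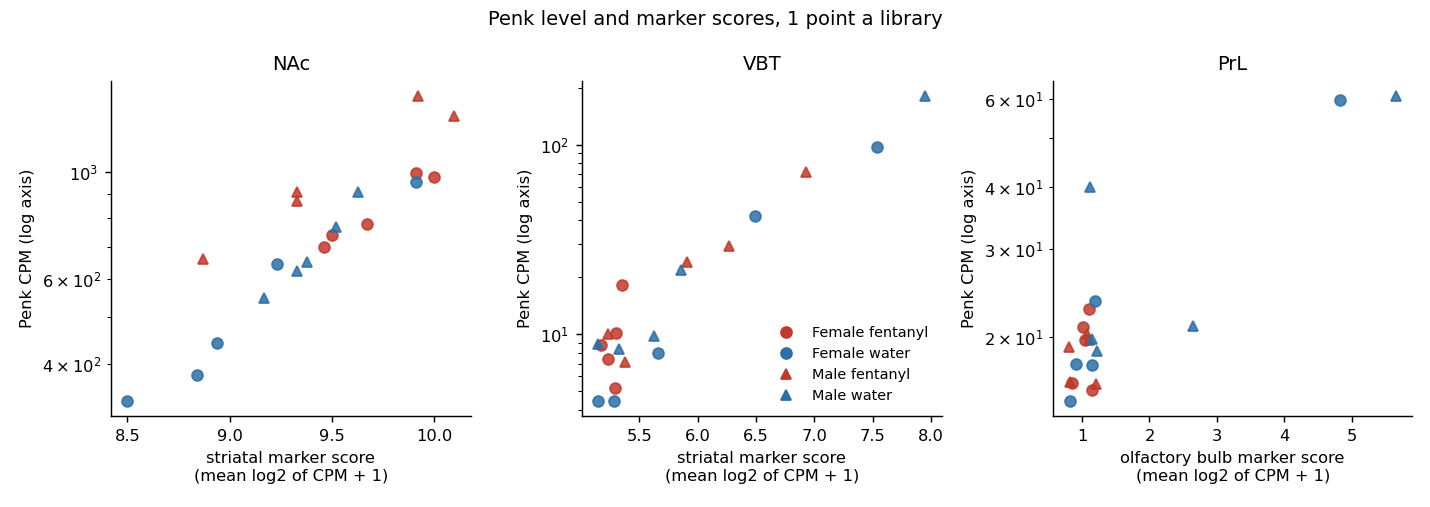
Penk level (CPM, log axis) against the score of striatal markers in NAc and VBT and of olfactory bulb markers in PrL, 1 point a library, circles for females, triangles for males, red for fentanyl and blue for water. In NAc Penk increases with the score over all 20 libraries, in VBT the 3 highest Penk values go with the 3 highest striatal scores, and in PrL 2 of the 3 highest values go with olfactory bulb markers.

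The ratio of Penk to Pdyn within a library does not depend on how libraries are scaled. In NAc males the ratios of CPM values were 5.55, 4.24, 4.51, 5.74 and 4.42 with fentanyl and 3.64, 3.94, 3.43, 3.36 and 3.87 with water. The groups did not overlap. The mean log2 ratio was 2.28 ± 0.20 against 1.86 ± 0.10 (SD, n = 5 each), a difference of 0.41 with a two-sided exact permutation p of 0.00794, the smallest that 5 against 5 can give, and an adjusted p of 0.0397 over the 10 tests of region and sex. A single test at that smallest p would not pass after adjustment over 10, so this call depends on a second test, that of PrL males below, being at the same p. In NAc females the ratios were 4.26, 3.78, 4.78, 3.74 and 4.03 with fentanyl and 4.23, 3.56, 3.79, 4.10 and 4.09 with water, and the difference of 0.06 did not pass (exact permutation p = 0.516, adjusted p = 0.893). The male minus female difference of the effect was 0.36 in NAc, with a permutation p of 0.0120 and an adjusted p of 0.0598 over the 5 regions. With any 1 male library left out the difference stayed between 0.35 and 0.46, where 5 against 4 cannot pass after adjustment over the 10 tests.

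**Figure D4:**
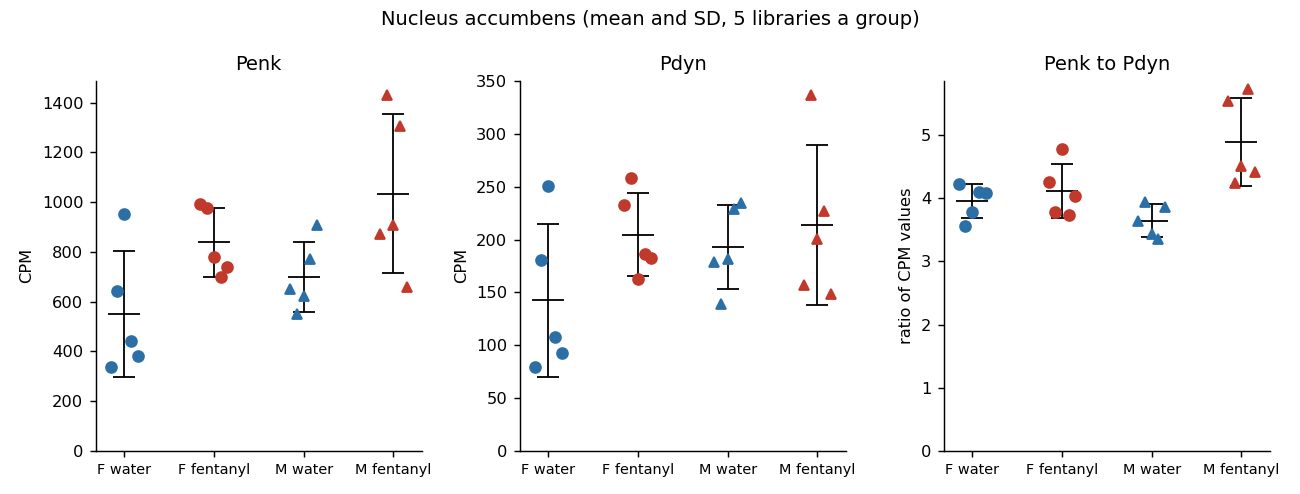
Penk and Pdyn (CPM) and their ratio in the NAc libraries, by sex (F, M) and treatment, with the group mean and SD. The ratio of the 5 male fentanyl libraries, from 4.24 to 5.74, is above that of the 5 male water libraries, from 3.36 to 3.94, while the female groups overlap.

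The markers of the neurons that make each peptide were set beside this ratio, a comparison added after the ratio was seen. Log2 Penk minus the score of indirect pathway markers (Drd2, Adora2a, Gpr6 and Sp9) was 3.69 ± 0.13 in male fentanyl and 3.29 ± 0.11 in male water libraries (SD, n = 5 each). The difference was 0.40 (exact permutation p = 0.00794, adjusted p = 0.0476 over 6 tests), which uses the same Penk values as the ratio and is no separate evidence, and in females it was 0.12 (exact permutation p = 0.198, adjusted p = 0.397). The score of indirect minus that of direct pathway markers (Drd1, Tac1, Isl1 and Chrm4) differed by 0.03 in males and 0.09 in females (exact permutation p = 0.603 and 0.405). Log2 Pdyn minus the direct pathway score differed by 0.01 in males and 0.15 in females (exact permutation p = 0.921 and 0.0794). In edgeR 0 of the 4 indirect and 0 of the 4 direct pathway genes passed in either sex. In females 4 and 2 of them had an unadjusted p under 0.05, against 9.03% of all genes. The list medians were 0.60 and 0.48 there, against 0.001 over all genes. In males none had such a p, against 17.6% of all genes, with medians of 0.28 and 0.20 against -0.005.

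In PrL, Penk was lower on average with fentanyl and Pdyn higher. Penk in males was 16.3, 19.1, 16.1, 20.3 and 19.7 CPM with fentanyl and 18.8, 19.8, 60.7, 21.1 and 39.9 with water. The male fentanyl values lay within a narrow range at the bottom of the water values, and male water 3 and 5 were far above the rest. In females Penk was 21.0, 22.8, 16.2, 15.7 and 19.7 CPM with fentanyl and 17.7, 23.6, 14.9, 17.6 and 59.7 with water, where only female water 5 lay outside the fentanyl group's range by more than 1 CPM. The log2 fold change was -0.78 ± 0.36 (SE) in males and -0.44 ± 0.36 (SE) in females (adjusted p = 0.415 and 0.711). Averaged over the sexes it was -0.61 ± 0.26 (SE, adjusted p = 0.206). Of 19074 genes, 0.697% were called in the average, 0.0210% in females, 0.00% in males and 0.00% for the difference between the sexes. Reads outside exons also moved with treatment in PrL: every female fentanyl library, from 10.2% up, lay below every female water library, at 12.3% to 14.3%, and in males the range was 11.1% to 13.1% with fentanyl against 12.9% to 14.7% with water. With that percent as a covariate the average was -0.33 for Penk (adjusted p = 0.924) and 0.04 for Pdyn (adjusted p = 0.988).

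The 2 highest Penk values in PrL belonged to the 2 libraries with the highest olfactory bulb scores. The library with the next highest score, male water 4, had 21.1 CPM of Penk and was kept in the fit without the other two. The third, male water 5 at 39.9 CPM, had an olfactory bulb score of 1.11, the median of the region. Without female water 5 and male water 3, the log2 fold change of Penk was -0.44 in males, 0.07 in females and -0.18 in the average, with adjusted p of 0.529, 0.933 and 0.614. The 4 olfactory bulb markers summed to 324 CPM in male water 3 and 171 CPM in female water 5, against medians of 6.42 to 8.18 CPM in the 4 PrL groups, and Tbx21 was at 0 in 4 of the 20 libraries. The olfactory bulb score was 0.809 to 1.20 in male fentanyl and 1.11 to 5.66 in male water libraries (exact permutation p = 0.0397, adjusted p = 0.238). With that score as a covariate Penk was at -0.27 in males, -0.03 in females and -0.15 in the average, and Pdyn at 0.23 in males (adjusted p = 0.688).

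Pdyn in PrL males was 31.0, 30.3, 25.2, 27.4 and 30.9 CPM with fentanyl and 23.2, 23.8, 16.6, 27.1 and 19.5 with water. Of the 5 fentanyl values 4 lay above every water value. The log2 fold change was 0.42 ± 0.14 (SE) in males (adjusted p = 0.358), 0.12 ± 0.14 (SE) in females (adjusted p = 0.802) and 0.27 ± 0.10 (SE) in the average (adjusted p = 0.148). Without female water 5 and male water 3 it was 0.32 in males (adjusted p = 0.364) and 0.16 in the average (adjusted p = 0.257).

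The ratio of Penk to Pdyn in PrL males was 0.524, 0.631, 0.639, 0.738 and 0.636 with fentanyl and 0.810, 0.833, 3.66, 0.778 and 2.05 with water, again without overlap. The difference in mean log2 ratio was -1.06 (two-sided exact permutation p = 0.00794, adjusted p = 0.0397), the opposite sign to that in NAc males. Without male water 3 it was -0.69 and without male water 5 -0.90, neither of which can pass with 5 against 4 libraries. In females the difference was -0.40 (exact permutation p = 0.635). The male minus female difference of -0.66 did not pass (permutation p = 0.305, adjusted p = 0.509).

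Pnoc in PrL females was the only member of any region and sex whose fentanyl and water groups did not overlap. It was 5.58, 4.03, 4.30, 4.23 and 3.94 CPM with fentanyl and 3.82, 3.78, 3.68, 3.62 and 3.86 with water. Of 15551 genes at a mean of 1 CPM or more, 2.31% had no overlap in that comparison, and 2.17% in PrL males. The same share was 1.75% in females and 27.3% in males of VTA, 2.24% and 0.913% in VBT, 4.84% and 1.63% in S1, and 0.714% and 3.96% in NAc. The log2 fold change was 0.27 ± 0.10 (SE, adjusted p = 0.416), and in males it was -0.05 ± 0.10 (SE). Pomc in PrL was at -0.11 in females and 0.17 in males, with adjusted p of 0.914 and 0.834.

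In VTA, Pnoc was lower on average in fentanyl males. The values were 22.8, 15.3, 14.0, 8.96 and 12.3 CPM with fentanyl and 21.7, 29.1, 20.4 and 17.2 with water. All fentanyl libraries but male fentanyl 1 lay below the lowest water library. The log2 fold change was -0.56 ± 0.25 (SE, adjusted p = 0.121), and in females, with 17.5 ± 3.58 against 18.9 ± 4.83 CPM (SD, n = 5 each), it was -0.14 ± 0.24 (SE). Averaged over the sexes the log2 fold change was -0.35 ± 0.17 (SE, adjusted p = 0.158). The male minus female effect was -0.42 (adjusted p = 0.633). In this region 22.0% of 19822 genes were called in males and 23.1% in the average, and 0.00% each in females and for the difference between the sexes. Without male fentanyl 1 the male value passed, at -0.78 (adjusted p = 0.0267, in a fit that called 15.8% of genes), as it did with the GABA neuron score as a covariate (-0.49, adjusted p = 0.0416, in a fit that called 24.0% of genes) and with the percent of reads outside exons (-0.76, adjusted p = 0.0128, in a fit that called 27.7%). With VTA male water 3 kept the male value was -0.23. The average also passed without male fentanyl 1 (-0.46, adjusted p = 0.0376) and with the percent of reads outside exons (-0.47, adjusted p = 0.0203).

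The VTA is a mix of dopamine and GABA neurons, and Pnoc and Penk followed the GABA neuron score (Gad1, Gad2 and Slc32a1) across its 19 libraries. For Penk, r was 0.84 and rho 0.83 (permutation p = 2.00e-05 and 3.00e-05, adjusted p = 4.80e-05 and 0.000120). For Pnoc they were 0.65 and 0.74 (permutation p = 0.00280 and 0.000490, adjusted p = 0.00480 and 0.000909). With the 2 libraries farthest from the median left out, r was 0.79 and 0.56. Pdyn and Pomc had r of -0.03 and 0.03 with that score, and -0.57 and -0.16 with the 2 libraries left out. The score was 7.98 ± 0.516 in male fentanyl and 8.11 ± 0.483 in male water libraries, and 8.02 ± 0.498 against 8.23 ± 0.285 in females (exact permutation p = 0.746 and 0.548). The dopamine neuron score was 3.94, 5.85, 6.07, 4.78 and 5.34 in male fentanyl and 6.47, 5.63, 5.99 and 6.19 in male water libraries, with median summed levels of 678 and 1143 CPM. With it as a covariate, the male value of Pnoc was -0.61 (adjusted p = 0.185).

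Pomc in VTA males was 1.22, 1.09, 1.15, 3.77 and 1.44 CPM with fentanyl and 1.98, 1.99, 2.08 and 2.41 with water. Of the fentanyl values 4 lay below all water values and 1, that of male fentanyl 4, above them. The log2 fold change of -0.23 ± 0.31 (SE) did not pass (adjusted p = 0.655). Without male fentanyl 4 it was -0.76 (adjusted p = 0.0161), in a fit that called 20.7% of genes. The average of the sexes, -0.15 with all libraries (adjusted p = 0.683), was -0.42 in that fit (adjusted p = 0.0369). Male fentanyl 4 also had the highest dentate gyrus score of VTA (4.61). Penk in VTA males was 109, 79.6, 44.4, 37.7 and 34.1 CPM with fentanyl and 86.8, 113, 45.4 and 65.0 with water (-0.31 ± 0.36, SE, adjusted p = 0.594), and Pdyn differed by -0.10 ± 0.22 (SE, adjusted p = 0.792). In females Penk, Pdyn and Pomc differed by -0.02, -0.00 and -0.06.

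**Figure D5:**
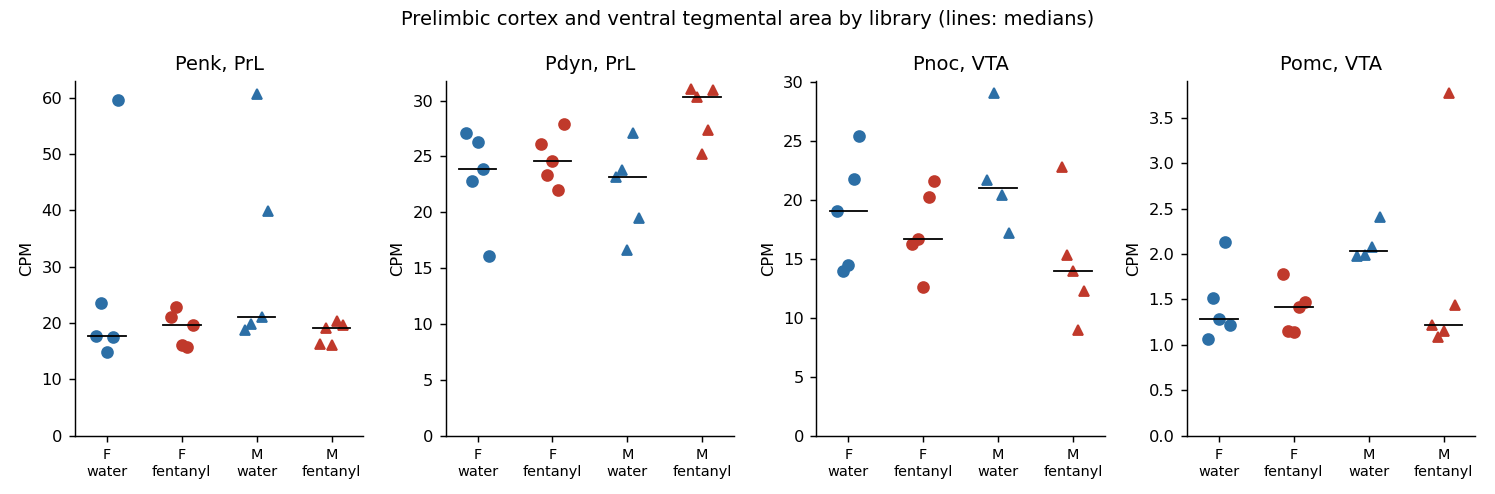
Penk and Pdyn in PrL and Pnoc and Pomc in VTA (CPM), 1 point a library, by sex (F, M) and treatment, with lines at the medians. In PrL male water 3 and 5 and female water 5 stand above the other Penk values. In VTA 4 of the 5 male fentanyl libraries lie below all male water libraries in each gene. The exception is male fentanyl 1 for Pnoc and male fentanyl 4 for Pomc.

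In VBT the largest fold changes had the largest errors. In females Penk was 5.22, 10.2, 7.37, 8.83 and 18.1 CPM with fentanyl and 41.9, 96.9, 7.95, 4.45 and 4.45 with water. In males it was 29.1, 7.17, 24.1, 10.0 and 72.0 with fentanyl and 8.41, 9.85, 180, 21.9 and 8.88 with water. A few libraries of either treatment were high, and the groups overlapped. Log2 fold changes were -1.62 ± 0.99 (SE) in females and -0.69 ± 0.96 (SE) in males, with adjusted p of 0.737 and 0.895. Pdyn was at -1.16 ± 0.95 (SE) and -0.11 ± 0.94 (SE), with adjusted p of 0.842 and 0.986. None of 18923 genes, 0.00%, was called in either sex, over both or for their difference.

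Penk in VBT followed the striatal score, with r = 0.95 and rho = 0.79 over 20 libraries (permutation p = 1e-05 and 0.000110, adjusted p = 3.00e-05 and 0.000264) and r = 0.90 without the 2 libraries farthest from the median. For Pdyn the values were r = 0.91 and rho = 0.82 (permutation p = 1e-05 and 4.00e-05, adjusted p = 3.00e-05 and 0.000120), and r = 0.81 without those 2. The 3 libraries with the highest scores were also the 3 highest in Penk and in Pdyn. The 4 striatal markers summed to 1100 CPM in male water 3, 841 in female water 2 and 598 in male fentanyl 5, against group medians of 312 to 380 CPM, and none was at 0 in any VBT library. Without these 3 the log2 fold change of Penk was -0.57 in females, 0.51 in males and -0.03 in the average, with adjusted p of 0.888, 0.907 and 0.990. With the striatal score as a covariate its sign turned in both sexes, to 0.69 and 0.12 (adjusted p = 0.517 and 0.898). Pnoc in VBT, which did not follow that score (r = -0.20), was at -0.11 ± 0.19 (SE) in females and 0.37 ± 0.19 (SE) in males, and Pomc at 0.17 ± 0.24 and 0.27 ± 0.24 (SE). None of these passed.

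In S1 no precursor passed, and none differed by more than 0.28 on the log2 scale in either sex. Penk was 19.0 ± 7.66 CPM with fentanyl and 15.9 ± 1.65 with water in females (SD, n = 5 each), and 16.3 ± 2.17 (SD, n = 5) against 20.1 ± 4.16 (SD, n = 4) in males. The log2 fold changes were 0.24 ± 0.19 and -0.28 ± 0.20 (SE), with adjusted p of 0.599 and 0.796. In females 1 library stood apart, female fentanyl 5, at 32.1 CPM against 12.5 to 18.4 in the other 4, and without it the value was -0.01. That library had the highest striatal (6.19) and oligodendrocyte (10.4) scores of S1, and with the striatal score as a covariate the value was 0.07. Pdyn was 20.9 ± 4.16 against 18.3 ± 1.09 CPM in females and 23.1 ± 3.27 against 20.5 ± 3.10 in males, with log2 fold changes of 0.19 ± 0.13 and 0.20 ± 0.13 (SE) and 0.19 ± 0.09 (SE) in the average (adjusted p = 0.312). Pnoc and Pomc differed by at most 0.14 in either direction. Of 19748 genes 1.03% were called in the average, 0.142% in females, 0.00% in males and 0.00% for the difference between the sexes.

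Sex differences in the water groups were tested in the same fits, and 0 of 20 passed, with 1 unadjusted p under 0.05. That one was Pnoc in PrL, 4.35 ± 0.427 CPM in males and 3.75 ± 0.0973 in females (SD, n = 5 each), with a log2 difference of 0.22 ± 0.10 (SE, adjusted p = 0.999). In these tests the share of genes called was 0.0898% in VBT, 0.0557% in S1, 0.0513% in NAc, 0.0504% in VTA and 0.0472% in PrL. In NAc all 4 precursors had higher means in water males than in water females, by 0.32 for Penk, 0.41 for Pdyn, 0.48 for Pomc and 0.13 for Pnoc, and adjusted p-values were 0.502 or higher.

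The receptors of these peptides had regional patterns of their own. The kappa receptor gene Oprk1 was highest in NAc, at 7.31 ± 2.20 CPM per kilobase (SD, n = 20), the region with the highest Pdyn. It was next highest in VTA, at 4.11 ± 1.28 (SD, n = 19). The delta receptor gene Oprd1 stood at 6.80 ± 0.972 in PrL, 5.09 ± 0.924 in NAc (SD, n = 20 each) and 5.05 ± 0.662 in S1 (SD, n = 19), against 1.57 ± 0.701 in VTA and 1.02 ± 0.669 in VBT. The mu receptor gene Oprm1 was at 0.854 ± 0.258 in VTA and 0.618 ± 0.285 in NAc, and at most 0.176 in the other regions. Per kilobase, the nociceptin receptor gene Oprl1 was the highest of the 4 in every region. It ranged from 10.4 ± 1.47 in NAc to 23.8 ± 1.43 in VTA, the region with the highest mean Pnoc. In CPM not divided by exon length, Oprk1 was above Oprl1 in NAc, at 66.9 ± 20.2 against 38.9 ± 5.51 (SD, n = 20 each). In the fentanyl contrasts 0 of 4 receptor genes passed in edgeR in any region. Of their unadjusted p-values 8 of 80 were under 0.05, against 2.59% to 35.4% of all genes in the same contrasts. All genes were called at 22.0% in VTA males, 23.1% in the VTA average and at most 1.03% in the other fentanyl contrasts. The smallest p in NAc females was that of Oprd1 (0.36 ± 0.13, SE, adjusted p = 0.544), and in VTA males also that of Oprd1 (0.68 ± 0.35, SE, adjusted p = 0.186).

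The enzymes that process the precursors were measured from a list of 8 genes. Cpe, the carboxypeptidase that trims the cut peptides, was the most abundant, from 751 ± 147 CPM per kilobase in VTA to 1000 ± 71.3 in VBT. Pcsk1, a prohormone convertase, was at 78.3 ± 10.2 CPM in PrL, 74.3 ± 16.8 CPM in VTA and 10.5 ± 2.47 CPM in VBT. Pcsk2, another convertase, ranged from 28.9 ± 4.11 CPM per kilobase in VTA to 71.5 ± 9.32 in PrL. Pcsk1n, which encodes an inhibitor of the Pcsk1 product, was the only processing gene called. It fell in VTA males by 0.95 ± 0.15 (SE, adjusted p = 0.00218) and in the average of the sexes by 0.71 ± 0.10 (SE, adjusted p = 0.000907). So 1 of 8 passed in males, with a list median of -0.03 against 0.002 over all genes, where 22.0% of genes were called. In a fit with GC content offsets it was -0.68 in males (adjusted p = 0.00367), and with VTA male water 3 kept -0.83 (adjusted p = 0.0521). In the other 4 regions 0 of 8 passed. There 18 of 128 unadjusted p-values were under 0.05, against 2.59% to 19.1% of all genes in the same contrasts.

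Of 7 genes for enzymes that break opioid peptides down, 2 fell in VTA males, Ece1 by 0.32 (adjusted p = 0.0136) and Ece2 by 0.40 (adjusted p = 0.0106), both endothelin-converting enzymes. In the average of the sexes Mme, neprilysin, rose by 0.36 (adjusted p = 0.0211), while Ece2 fell by 0.29 (adjusted p = 0.00804) and Dpp3 by 0.17 (adjusted p = 0.0317). Over all genes 22.0% were called in males and 23.1% in the average, so these counts are no result about the list. With offsets for GC content Ece2 still passed in both, and Ece1 (-0.15, adjusted p = 0.318), Mme (0.13, adjusted p = 0.527) and Dpp3 (-0.00, adjusted p = 0.993) did not. With VTA male water 3 kept none of these calls held: Ece2 was -0.08 in males and -0.13 in the average, and Mme 0.52 and Dpp3 -0.01 in the average (adjusted p = 1 each), and Ece1 was -0.41 in males (adjusted p = 0.171). The values of Dpp3 and Mme also lost their call with single libraries left out, Mme without male water 5 and Dpp3 without any 1 of 10 libraries. Over all genes the fit with offsets for GC content called 4.02% in males and 4.65% in the average. The other regions had 0 of 7. There 11 of 112 unadjusted p-values were under 0.05, against 2.59% to 19.1% of all genes in the same contrasts.

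The genes most like each precursor over the 20 group means were described by Pearson's r of log2 CPM plus 1, without a test, since libraries share regions. Penk was closest to Arhgap6 (r = 0.986), Rgs9 (0.985) and Pou3f4 (0.984), and Pdyn to Gm38413 (0.990), Krt9 (0.989) and Bcl11b (0.988). Pnoc was closest to Grin2d, Atpaf2 and Csf1 (each 0.983), and Pomc to Ctu1 (0.911), Prmt1 (0.898) and Cant1 (0.897), a looser match. Within groups of the 20 NAc libraries, deviations of Penk went with those of Ppp1r1b (0.988), Gnb5 (0.984) and Adora2a (0.979), and those of Pdyn with Foxp2 (0.964), Dlx6 (0.954) and Penk itself (0.953). Within the 19 VTA libraries Pnoc went with Rmdn3 (0.879), Bcl2l1 (0.870) and Peg10 (0.846), and Pomc with Nt5c (0.780), Sdr39u1 (0.778) and Prmt6 (0.773). Ppp1r1b and Rgs9 are among the 4 striatal markers used above, and Adora2a is among the 4 indirect pathway markers.

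Across regions the median ratio of Penk to Pdyn in CPM was 22.0 in VTA (9.27 to 51.6), 5.83 in VBT (0.918 to 15.7), 4.06 in NAc (3.36 to 5.74), 0.831 in S1 (0.497 to 1.69) and 0.736 in PrL (0.524 to 3.72). As a fold of highest over lowest, this range was narrowest in NAc, where both genes are highest. In VTA the difference between fentanyl and water was 0.01 in females and -0.22 in males on the log2 scale, in VBT -0.45 and -0.64, and in S1 0.01 and -0.47, with adjusted p of 0.238 or higher in these 6 tests.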

How the data were processed

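The deposited files hold raw counts of reads per Ensembl gene over exons. Per the submitters' processing notes HTSeq and GRCm38 were used, and per the labels' protocols a SMART-Seq v4 kit was used on 10 ng of RNA per library. The aligner and strand setting are not given in the sources used here. The kit does not mark strand. Within the stretch that Penk shares with its antisense neighbour A830012C17Rik, reads of these genes therefore cannot be told apart by strand. The 5 summary lines that name no gene stayed out of totals and tests. Reads they count as outside exons were 10.2% to 18.3% of a library. The rule leaves out VTA water libraries with under 10000 genes detected, which removed 1. A count of 0 allows up to 3 reads, or 0.0576 to 0.130 CPM, for counting error only. Symbols, positions and coding sequences came from GENCODE M21, which named 55154 of the 55335 genes.

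Each region was fitted with edgeR 4.0.16 (TMM scaling, filterByExpr, robust quasi-likelihood F-test) over its 4 groups of sex and treatment. Region pairs were tested in 1 fit over all 20 groups, with sex and treatment weighted equally. That fit treats the 98 libraries as independent, though libraries of different regions may come from the same animals, which the labels do not tie together. Benjamini-Hochberg adjustment was over all genes tested, and a call is an adjusted p under 0.05. Single values and scores were compared with exact permutation tests, and correlations with permutation tests, in scipy 1.17.1. The code was tested on simulated data. Alternatives were DESeq2 1.42.0, limma 3.58.1 (voom with sample weights), other size factors, no filter, GC and exon length offsets, covariates, a replicate block and leaving out each library. Fits without libraries that stand apart, with the striatal score in VBT or the GABA neuron score in VTA, and those of the degradation and processing genes were added after the data were seen.

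The members, the lists and the tests were chosen with earlier results of these data known. Named genes are the members, all called genes of the receptor, processing and degradation lists, the smallest p of a list and the 3 genes most like each member. Cell types were read only from marker scores; 1 striatal and 1 cortical marker of the lists are not reported here, and both scores were computed without them.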

Additional observations from a re-analysis of the deposited data

Results flagged for a closer look

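Among the 80 groups of 4 or 5 libraries, 1 for each member, region, sex and treatment, 14 held a library whose gap to its nearest neighbour took up more of the group's range than Dixon's 95% limit allows. Chance flags about 1 in 20 groups, or 4 here. Of the 14, 5 were in VBT. Penk was 180 CPM in VBT male water 3, against 8.41 to 21.9 in the other 4. Pdyn in the same library was 20.4 CPM, against 0.608 to 2.22. Pdyn was also high in VBT female water 2 (18.4 CPM, others 0.283 to 5.24), in VBT male fentanyl 5 (12.1 CPM, others 1.75 to 4.63) and in VBT female fentanyl 1 (5.68 CPM, others 1.54 to 2.45). The first 3 of these libraries had the 3 highest striatal scores of VBT, and the last is the library with Y-linked RNA.

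In PrL, Penk was 59.7 CPM in female water 5, against 14.9 to 23.6, and that library had olfactory bulb markers. Pnoc was 5.58 CPM in PrL female fentanyl 1 (others 3.94 to 4.30) and Pomc 2.03 CPM in PrL male water 1 (others 0.807 to 1.10).

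In VTA, Pomc was 3.77 CPM in male fentanyl 4 (others 1.09 to 1.44), the library with the highest dentate gyrus score of the region. Pdyn was low there in female fentanyl 3, at 1.76 CPM (others 3.28 to 3.61), the library with the lowest GABA neuron score (7.14).

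In NAc, Pnoc was 6.56 CPM in male fentanyl 5 (others 0.987 to 2.50) and 1.04 CPM in female water 3 (others 3.88 to 4.96). The former had the fewest counts of the 98 libraries used, 23032078, and the highest interneuron score of NAc, 5.24. Pomc was 2.35 CPM in NAc male water 5 (others 1.18 to 1.49) and 0.490 CPM in S1 female water 5 (others 1.03 to 1.18).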

How the results depend on the processing

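In VTA, where no member passed in the fentanyl contrasts, 2 tests passed with limma-voom, those of Pnoc and Pomc in males. With a covariate for reads outside exons 2 tests passed, both of Pnoc, in males and in the average. With the GABA neuron score 1 passed, that of Pnoc in males. With 1 library left out 0 to 2 tests passed. They were 2 of Pnoc without male fentanyl 1 and 2 of Pomc without male fentanyl 4, in males and in the average. In males those fits called 15.8% and 20.7% of all genes. In NAc 1 passed with limma-voom, 1 with the covariate for reads outside exons and 1 with the striatal score. Between regions 28 to 32 members' differences passed under the alternatives, against 31. Pdyn in VTA minus VBT turned to 0.62 with limma-voom and to 0.26 without the libraries of VBT and PrL that stand apart. Penk in VBT minus S1 turned to -0.57 with limma-voom, but passed at 1.09 among water libraries alone and at 0.72 without the libraries numbered 4. Penk in VBT minus PrL turned to -0.80 with limma-voom and to -0.56 without the libraries that stand apart. The cause of these turns was not tested. In VTA males, 796 genes passed with GC content offsets, against 4355 in the main test.

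With the replicate number as a block, 0 members passed in any fentanyl contrast, 30 between regions, and 0 of the ratio tests against 2, where a sign-flip test of 5 pairs gave an adjusted p of 0.208 in both. With 5 pairs that test cannot give a p under 0.05, so the loss of these calls says nothing about them. The labels tie same-numbered libraries by number only. Deviations from group means of same-numbered fentanyl and water libraries had median correlations of 0.01 to 0.09 within regions. For other numbers the medians were -0.04 to 0.02. The highest same-numbered value was 0.47, in VTA. Between regions, 73 of 192 same-numbered pairs of 1 sex and treatment were over 0.1, with a median of 0.06 against -0.02. Whether a number stands for 1 animal or litter was not tested. Penk in the NAc average was 0.60 under the block (adjusted p = 0.358).

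Depth limits Pomc, at 14 to 144 reads a library, and Pdyn in VBT, at 11 reads in the lowest.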
